A study of Mus musculus with 6 samples.

Results

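The genes for translation factors and aminoacyl-tRNA synthetases were examined in cochlear explants with and without neomycin damage. They were taken from the count table by symbol: the eukaryotic initiation factors (Eif1 to Eif6), the elongation factors (Eef1 and Eef2), the synthetases named for 1 amino acid (such as Iars, or Iars2 for the mitochondrial enzyme), and Eprs, Farsa, Farsb, Aimp1 and Aimp2. The Eif2ak kinases and the Y-linked copy Eif2s3y matched in part and were left out, 5 symbols in all. This gave 98 of 24421 gene symbols, of which 95 were among the 15988 genes with enough counts to test. The explants came from wild-type mice at postnatal day 2 and were dissected free of the stria vascularis anlage, the modiolus and the tectorial membrane. They were held 12 h in culture, exposed to the aminoglycoside neomycin at 1 mM for 6 h, and kept 5 more days in medium with EdU, a label of new DNA, at 10 μM. Control explants are taken here as the same cultures without neomycin, although the labels of all 6 samples carry one protocol text that includes it. Each of the 3 control and 3 neomycin samples was 1 library from a pool of several cochleae, so the spread between samples is that between pools. No strain or sex of the mice is given in the sources used here.

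Translation of an mRNA begins when eIF2 brings the initiator tRNA to the small ribosomal subunit and the eIF4 factors recruit the capped mRNA, with eIF3 as the scaffold between them. eEF1 then delivers each charged tRNA and eEF2 moves the ribosome along by a codon, while the synthetases charge tRNAs with their amino acids, in the cytosol and, by separate enzymes, in mitochondria. Aminoglycosides bind ribosomal RNA, and in the cochlea neomycin kills hair cells (HCs), the mechanosensory cells, and leaves many supporting cells (SCs) in place.

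Total counts lay between 50471116 and 66068108 per sample, and the members took 2.53% to 2.97% of them. The summed level of 10 HC markers was 704 to 818 CPM (read counts relative to the TMM-scaled library total) in control and 231 to 284 CPM after neomycin, and all 10 were called lower. Of the 10 SC markers 2 were called higher and 2, Prox1 and Fgfr3, lower, and their sum, 6632 to 7109 CPM against 7604 to 8055 CPM, was mostly Epyc, which was not called. Of the macrophage markers 5 were called higher and none lower (94.1 to 124 against 135 to 168 CPM), and of the Schwann cell and glia markers 1 higher and 1 lower (271 to 321 against 319 to 347 CPM). Of the mesenchyme markers 1 was called higher and 5 lower, although their sum overlapped (6406 to 6999.9 against 6637 to 6885 CPM). Neuron markers summed to 242 to 337 against 226 to 249 CPM, with 4 called lower (Nefl, Nefm, Nefh and Snap25) and Syt1 higher. Endothelial markers summed to 294 to 333 against 277 to 328 CPM, with 7 called lower and none higher. This sum was mostly Emcn, which was not called (mean 252 against 273 CPM), and the median log2 fold change of the list was -1.94. No marker of any list was at 0 in all samples. The part of this shift in cell makeup in the member genes was not tested, and in such bulk samples fewer cells of a type and less RNA per cell cannot be told apart.

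Most of the translation machinery differed little between the groups. With edgeR's quasi-likelihood test 17 of the 95 tested members were called at an adjusted p under 0.05, 17.9% where 29.0% of all genes were. Of these 11 were higher after neomycin and 6 lower. This was 11.6% and 6.32% of the members, against 12.9% and 16.1% of all genes tested. The remaining 78 were not called, and 71 members had a log2 fold change under 0.2 in size. With a fold of 1.5 as an added requirement no member was called higher and 1 was called lower, where 2.24% and 6.60% of all genes passed. The median log2 fold change was 0.06 over the members and near 0 (-0.004) over all genes. More members sat above 0 than below, 60 against 35 or 63.2%, where 49.5% of all genes did. The control and neomycin samples did not overlap for 29 members, 30.5% of those tested, against 43.5% of all genes.

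**Figure D1:**
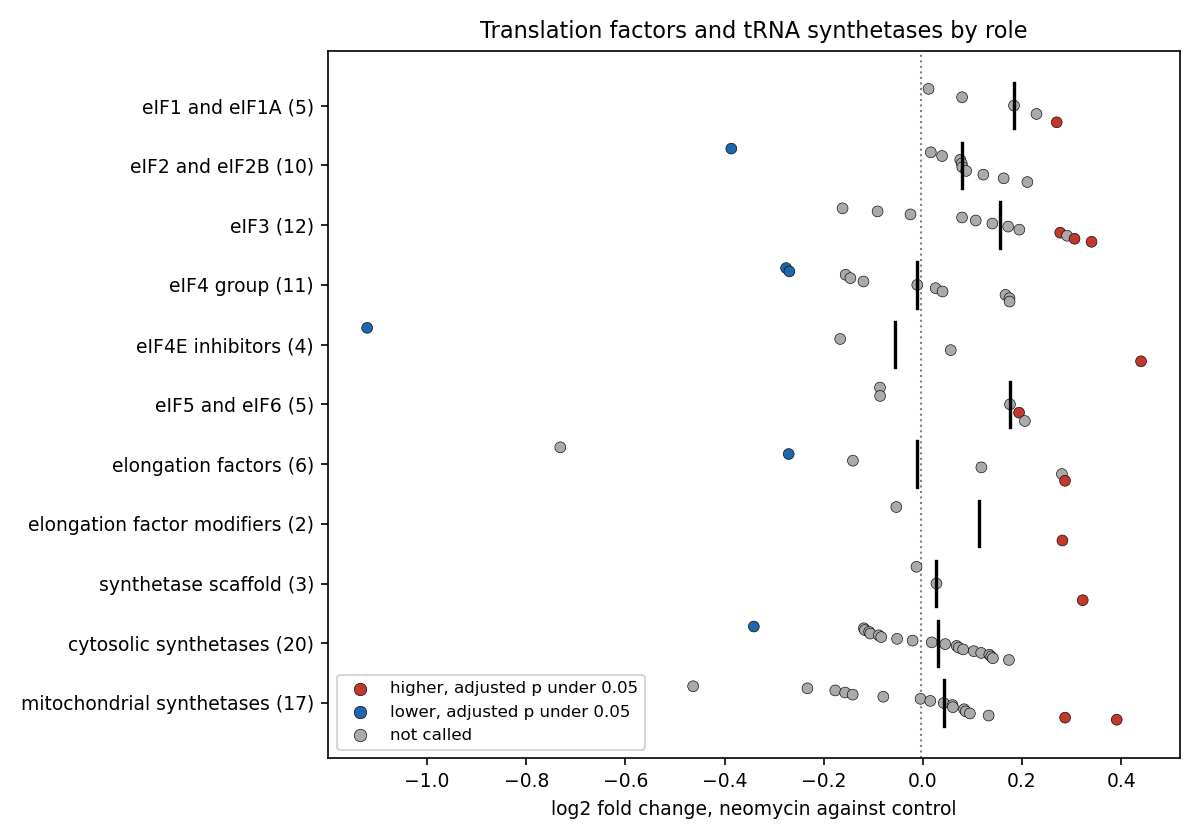
Log2 fold change of neomycin against control (x axis) for each of the 95 tested members (points), in rows by role with the number of members in parentheses. Black bars are the median of each role, the dotted line is the median of all genes, and colours mark the 11 members called higher and the 6 called lower, with Eif4ebp2 far to the left at -1.12.

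**Figure D2:**
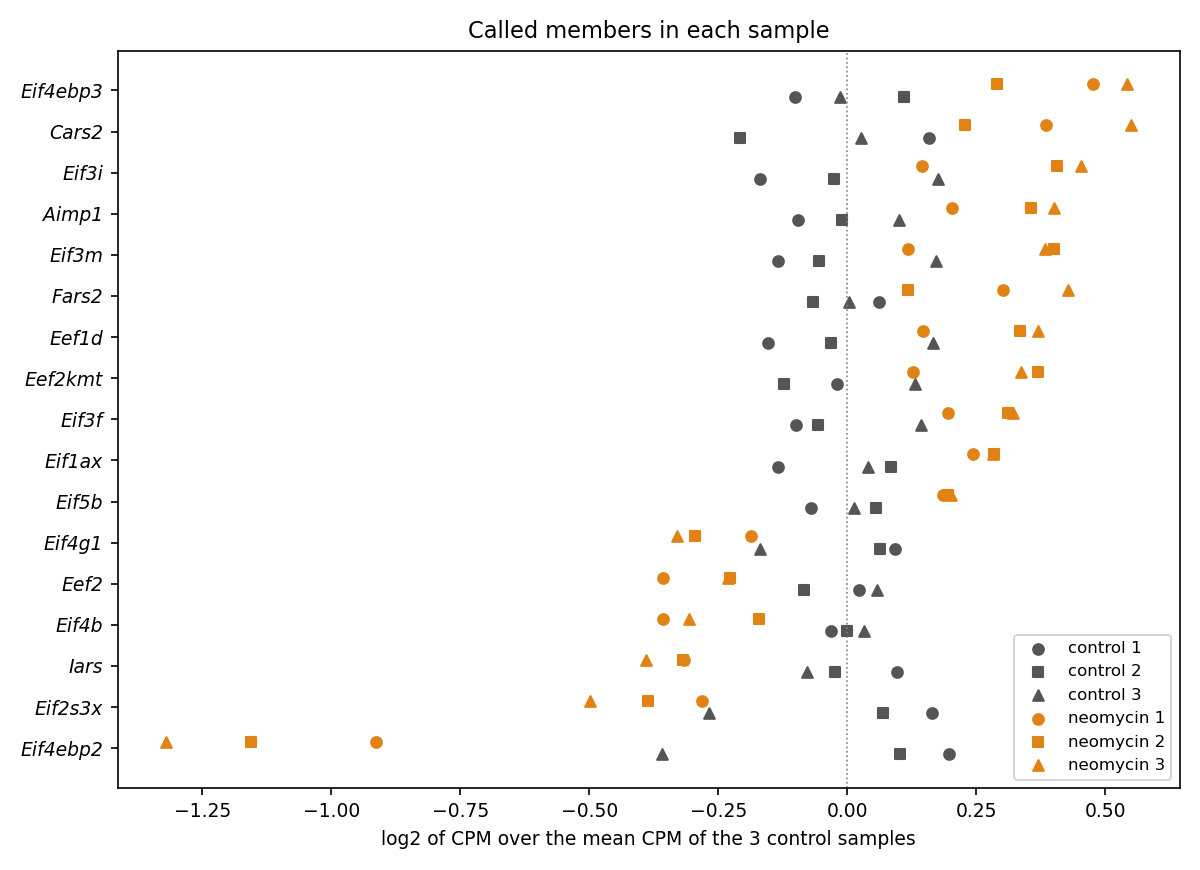
Each called member in each of the 6 samples, as the log2 of its CPM over the mean CPM of the 3 control samples (x axis); marker shapes are the sample numbers. Eif4ebp2 lies furthest from 0, and control 3 lies on the neomycin side of the other control samples for several genes, among them Eif3i, Eif3m, Eef1d, Eif2s3x and Eif4g1.

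The largest change was in an inhibitor of the cap-binding protein. The eIF4E-binding proteins hold eIF4E away from eIF4G until mTOR phosphorylates them, and Eif4ebp2, which encodes the form known best from the brain, was measured at 24.0, 22.5 and 16.3 CPM in control 1, 2 and 3. After neomycin it stood at 11.1, 9.39 and 8.38 CPM, so that even the lowest control sample was above every neomycin sample. It fell by 54.0%, or by 1.12 ± 0.15 on the log2 scale (SE, n = 3 per group, adjusted p = 0.000292), and was the only called member past a fold of 1.5. The gene (ENSMUSG00000020091) lies at chr10:61428491-61452661 of GRCm38 with no exon overlap of another gene on either strand. Without any single library it was still called, with adjusted p between 8.32e-05 and 0.00318, and with the length trend removed its log2 fold change was -1.04.

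The related inhibitors took other courses. Eif4ebp1 was measured at 23.1, 35.6 and 33.2 CPM in control and 25.0, 33.4 and 37.1 CPM after neomycin, a log2 fold change of 0.06 ± 0.16 with fully overlapping groups. Eif4ebp3 was the member with the largest rise, from 7.52, 8.70 and 7.99 CPM to 11.2, 9.86 and 11.7 CPM, with no overlap (0.44 ± 0.12 on the log2 scale, adjusted p = 0.0178). It is also the shortest member, with 744 bases of exon, and its exons overlap those of another transcript on the same strand, so its reads are uncertain. Its call ended with the length trend removed (0.06, adjusted p = 0.760) and also without control 1 or neomycin 3, with adjusted p up to 0.0741. Eif4enif1, which carries eIF4E into the nucleus, was measured at 66.9 to 71.4 CPM against 59.4 to 65.6 CPM (-0.17 ± 0.07, adjusted p = 0.0927). The cap-binding protein itself, Eif4e, stood at 110.1, 115 and 116 CPM in control and 109, 117 and 113 CPM after neomycin, a log2 fold change of -0.01 ± 0.07. Per kb of exon the control level was 18.9 CPM for Eif4e and 14.0, 3.62 and 10.8 CPM for Eif4ebp1, Eif4ebp2 and Eif4ebp3.

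The 11 tested genes of the eIF4 group, which binds the cap and unwinds the mRNA, had a median log2 fold change of -0.01. Among them 2 fell and none rose, against 16.1% and 12.9% of all genes. Eif4g1, the scaffold that joins eIF4E to eIF3, was measured at 359, 352 and 299.9 CPM in control and 296, 275 and 268 CPM after neomycin. Control 3 was nearly level with neomycin 1, although the groups did not overlap. The difference was -0.27 ± 0.09 on the log2 scale (adjusted p = 0.0360). Eif4b, which stimulates the helicase eIF4A, fell from 522, 533 and 546 CPM to 417, 474 and 432 CPM (-0.28 ± 0.08, adjusted p = 0.0232). All of its control samples lay above all of its neomycin samples. The helicase genes were not called: Eif4a1 was at 0.17, Eif4a2 at 0.17 ± 0.09 (adjusted p = 0.183) and Eif4a3, a subunit of the exon junction complex, at 0.17 ± 0.08 (adjusted p = 0.0988). Eif4g1 was no longer called with the length trend removed (-0.15, adjusted p = 0.139). Leaving out control 2, neomycin 1 or neomycin 3 ended the call of Eif4b, with adjusted p up to 0.0895, and leaving out any of control 1, control 2, neomycin 2 or neomycin 3 ended that of Eif4g1, up to 0.139. Eif4e1b, the oocyte form of the cap-binding protein, had at most 2 counts in any sample and was not tested.

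Of the 12 tested eIF3 genes 3 rose and none fell, against 12.9% and 16.1% of all genes, 9 had a positive log2 fold change and the median was 0.16. With the length trend removed 2 were called and the median was 0.10. Eif3f was measured at 334, 344 and 395 CPM in control and 409, 444 and 446 CPM after neomycin, with no overlap (0.28 ± 0.09, adjusted p = 0.0306). Eif3i rose from 166, 183 and 211 CPM to 206, 247 and 255 CPM (0.34 ± 0.10, adjusted p = 0.0268), and Eif3m from 174, 184 and 215 CPM to 207, 251 and 249 CPM (0.31 ± 0.10, adjusted p = 0.0360). For both genes control 3 was above neomycin 1. Eif3e missed the threshold at 0.29 ± 0.10 (adjusted p = 0.0503). The subunits with negative values were the large ones: Eif3a, whose product is the largest subunit, stood at 282, 283 and 261 CPM against 249.8, 252 and 236 CPM (-0.16 ± 0.07, adjusted p = 0.115), Eif3b was at -0.09 and Eif3c at -0.02. The exons of Eif3f, Eif3i and Eif3m span 2891, 3702 and 2590 bases. After removal of the length trend Eif3f (0.19, adjusted p = 0.0668) and Eif3m (0.19, adjusted p = 0.102) were not called, Eif3i was (0.31, adjusted p = 0.0281), Eif3e came to be called (0.39, adjusted p = 0.0169) and Eif3a stood at -0.01. The calls of Eif3f, Eif3i and Eif3m all ended without control 1, control 2, neomycin 2 or neomycin 3, with adjusted p up to 0.122, 0.113 and 0.156. Eif3m exons overlap those of Ccdc73 on the opposite strand. Eif3j1 had 0 to 4 counts in every sample and its near-identical copy Eif3j2 none, so neither was tested and no level of the loosely bound j subunit can be given.

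eIF2 carries the initiator tRNA and eIF2B recharges it with GTP. Of the 10 genes of this group 1 fell and none rose, against 16.1% and 12.9% of all genes, and the group median was 0.08. The alpha subunit Eif2s1, the target of the stress kinases, was measured at 77.0, 88.2 and 83.0 CPM in control and 80.9, 84.6 and 85.5 CPM after neomycin, a log2 fold change of 0.02 ± 0.07. The gamma subunit Eif2s3x fell from 104, 97.6 and 77.2 CPM to 76.5, 71.1 and 65.8 CPM (-0.39 ± 0.10, adjusted p = 0.0153). Control 3 was less than 1 CPM above neomycin 1, and the groups did not overlap. Eif2s3x is X-linked (chrX:94188707-94212862), and X- and Y-linked genes, chosen after their values were seen, varied between the pools: Xist, which is transcribed from the inactive X, stood at 248, 214 and 63.2 CPM in control and 236, 165 and 172 CPM after neomycin, and the Y-linked Ddx3y at 29.9, 45.5 and 61.2 CPM against 15.3, 36.2 and 28.3 CPM. The Y-linked Ddx3y, Uty and Kdm5d were called lower after neomycin (-0.77, -0.78 and -0.93, adjusted p = 0.0480, 0.0215 and 0.0126). Eif2s3y (-0.36) and the X-linked Xist, Kdm6a and Kdm5c (0.12, -0.07 and -0.30) were not called. The part of these X- and Y-linked genes in the difference of Eif2s3x was not tested. The call of Eif2s3x ended without control 1, control 2, neomycin 2 or neomycin 3, with adjusted p up to 0.0698. Of the eIF2B subunits none was called, and Eif2b3 had the largest value (0.21 ± 0.10, adjusted p = 0.130). Eif2a, an initiation factor distinct from the eIF2 alpha subunit, was at 0.16 ± 0.07 (adjusted p = 0.117).

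The factors eIF1 and eIF1A act in start codon selection. All 5 genes grouped with them by symbol had positive values with a median of 0.18, and 1 rose, where 12.9% of all genes did. With the length trend removed the median was 0.02. Eif1ax, the X-linked gene of eIF1A, rose from 57.2, 66.6 and 64.6 CPM to 74.3, 76.5 and 76.3 CPM, with no overlap (0.27 ± 0.07, adjusted p = 0.0178). Eif1, the guard of start codon choice, was at 0.18 ± 0.10 (adjusted p = 0.167) and Eif1b at 0.23 ± 0.11 (adjusted p = 0.129), and the lowest value was that of Eif1ad, 0.01 ± 0.08. Among the 5 genes of eIF5 and eIF6 the median was also 0.18 (0.04 with the length trend removed) and 1 rose, Eif5b, the GTPase that joins the ribosomal subunits. Its levels were 124, 135 and 131 CPM in control and 148, 149 and 149.9 CPM after neomycin, without overlap (0.19 ± 0.07, adjusted p = 0.0484). Eif5a, which carries the amino acid hypusine and relieves stalled ribosomes, stood at 448, 481 and 519 CPM against 520.1, 532 and 584 CPM (0.18 ± 0.09, adjusted p = 0.146), and Eif6, which keeps free large subunits from joining, at 67.2, 72.4 and 80.8 CPM against 78.2, 79.6 and 96.3 CPM (0.21 ± 0.09, adjusted p = 0.121). For Eif5a control 3 and neomycin 1 were nearly level. Eif5a2 (-0.09 ± 0.10) and Eif5 (-0.09), which helps release eIF2 at the start codon, had negative values and were not called. On removal of the length trend the call of Eif5b, one of the longest members with 9753 bases of exon, grew stronger (0.37, adjusted p = 0.00267), that of Eif1ax held (0.32, adjusted p = 0.00587), and Eif1 and Eif1b stood at 0.02 and -0.08. Leaving out control 1, neomycin 2 or neomycin 3 ended the call of Eif1ax, with adjusted p up to 0.0771, and that of Eif5b ended in every fit without 1 library except the one without control 3, up to 0.149. Exons of Eif5b overlap those of Rev1 on the opposite strand.

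The 6 elongation factor genes had a median of -0.01 and were called in both directions. Among them 1 was higher and 1 lower, against 12.9% and 16.1% of all genes. Eef1a1, which delivers charged tRNAs to the ribosome, was the most abundant member and alone took 0.967% to 1.28% of all counts. It was measured at 10909, 11000.2 and 12836 CPM in control and 9686, 11013 and 10809 CPM after neomycin, overlapping groups that differed by -0.14 ± 0.11 on the log2 scale (adjusted p = 0.380). It was called with the length trend removed (-0.27, adjusted p = 0.0389). Eef2, the translocase, fell from 3447, 3200.3 and 3529 CPM to 2649, 2896 and 2891 CPM (-0.27 ± 0.10, adjusted p = 0.0492). Its groups did not overlap, but the call stood so close to the threshold that it ended in each of the 6 fits without 1 library, with adjusted p from 0.0773 to 0.126. The subunits of eEF1B, which recharge eEF1A with GTP, lay on the other side of 0. Eef1d rose from 168, 182 and 209 CPM to 206, 235 and 240.5 CPM (0.29 ± 0.09, adjusted p = 0.0369), with control 3 above neomycin 1. Eef1b2 was measured at 567, 593 and 696 CPM against 666, 797 and 792 CPM (0.28 ± 0.10, adjusted p = 0.0584), and Eef1g had a log2 fold change of 0.12. Exons of Eef1d overlap those of Naprt on the same strand, so its reads are uncertain, and its call ended without control 1, control 2, neomycin 2 or neomycin 3, with adjusted p up to 0.139. Per kb of exon the control levels were 4646 CPM for Eef1a1, 1021 CPM for Eef2, 305 CPM for Eef1g and 244 CPM for Eef1b2, the highest of all members.

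Eef1a2 encodes the eEF1A form that replaces Eef1a1 in mature neurons and muscle, and it varied widely between the control pools. It was measured at 15.7, 8.78 and 5.21 CPM in control 1, 2 and 3 and at 6.14, 6.12 and 5.72 CPM after neomycin. Control 1 was far above the rest and control 3 was below all neomycin samples. The neuronal gene Nefh also stood highest in control 1, at 14.1, 7.40 and 4.47 CPM in control and 4.05, 4.61 and 2.59 CPM after neomycin, as did Nefl, at 55.4, 34.7 and 31.5 CPM against 20.2, 15.2 and 19.7 CPM. Their part in the values of Eef1a2 was not tested. The difference of -0.73 ± 0.29 on the log2 scale was not called (adjusted p = 0.0742). Without control 1 it was -0.21 (adjusted p = 0.476), and without control 3 it was called at -1.03 (adjusted p = 0.00351). It was also called with no filter (adjusted p = 0.0292) and with the length trend removed (-0.92, adjusted p = 0.0408). Of the enzymes that modify eEF2, Eef2kmt, a lysine methyltransferase, rose from 26.6, 24.8 and 29.6 CPM to 29.5, 34.9 and 34.1 CPM, with neomycin 1 just under control 3 (0.28 ± 0.10, adjusted p = 0.0431). The inhibitory kinase Eef2k was at -0.05 ± 0.10. The Eef2kmt call ended with the length trend removed (0.17, adjusted p = 0.147) and without control 1, control 2, neomycin 2 or neomycin 3 (adjusted p up to 0.172), and its exons overlap those of Alg1 on the opposite strand.

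Among the 20 cytosolic synthetase genes 1 fell, none rose, and the median log2 fold change was 0.03. The exception was Iars, the isoleucyl-tRNA synthetase (ENSMUSG00000037851, chr13:49682100-49734267 of GRCm38). It was measured at 69.8, 64.2 and 61.9 CPM in control and 52.5, 52.4 and 49.9 CPM after neomycin. Every neomycin sample lay well below the lowest control sample. The difference was -0.34 ± 0.07 on the log2 scale (adjusted p = 0.00470), and Iars shared with Eif4ebp2 the property of being called in all 6 fits without 1 library (adjusted p 0.00342 to 0.0257) and with the length trend removed (-0.29, adjusted p = 0.00578). The other 19 lay between -0.12 and 0.17 on the log2 scale and were not called. Farsa, the alpha subunit of the phenylalanine enzyme, had the highest at 0.17 ± 0.09 (80.6, 75.3 and 91.3 CPM against 101, 94.9 and 83.2 CPM, adjusted p = 0.169), and Rars stood at 0.14 ± 0.07 (adjusted p = 0.159).

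Iars is 1 of 8 synthetases held in the multisynthetase complex together with the scaffold proteins Aimp1, Aimp2 and Eef1e1. The other 7 were not called, and the median of the 8 was near 0 (0.008). Eprs, the fused glutamyl- and prolyl-tRNA synthetase, was measured at 162, 167 and 155 CPM in control and 146, 153 and 151 CPM after neomycin (-0.11 ± 0.07, adjusted p = 0.264). Kars, the lysyl enzyme, stood at 111, 108 and 124 CPM against 125, 129 and 121 CPM (0.13 ± 0.07, adjusted p = 0.193). Of the scaffold, Aimp1 rose from 55.6, 59.0 and 63.7 CPM to 68.4, 76.1 and 78.4 CPM, with no overlap (0.32 ± 0.08, adjusted p = 0.00989). Aimp2, at 18.9, 22.3 and 26.9 CPM against 22.0, 22.5 and 24.9 CPM, and Eef1e1, at 17.4, 22.2 and 20.6 CPM against 19.2, 18.5 and 21.9 CPM, overlapped between the groups and had log2 fold changes of 0.03 ± 0.12 and -0.01 ± 0.11. Aimp1 missed the threshold only without neomycin 2 (0.31, adjusted p = 0.0551), and its exons overlap those of Tbck on the opposite strand. Gars, which like Kars also supplies mitochondria, was at -0.08 ± 0.07 (adjusted p = 0.391).

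Several synthetase genes are known to be induced by ATF4 in the amino acid response, and the promoter sequences are shown for that reason. RefSeq windows (GRCm38.p6) from 250 bases before to 50 after a start were at hand for 73 of the 98 members. The C/EBP-ATF response element TGATGNAA, on either strand, was in the windows of 7 of them (9.59%), against 4.51% of all 27025 genes with a window. Eef2k, Eif2s3x, Gars, Iars, Tars and Yars were among them. The stretches of 30 bases around it read as follows on the strand of the gene, with the element in capitals, for 4 synthetases.
Iars, chr13:49682126-49682155, plus strand: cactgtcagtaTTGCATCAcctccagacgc
Gars, chr6:55037960-55037989, plus strand: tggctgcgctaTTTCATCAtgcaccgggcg
Tars, chr15:11399655-11399684, minus strand: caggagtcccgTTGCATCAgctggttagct
Yars, chr4:129189895-129189924, plus strand: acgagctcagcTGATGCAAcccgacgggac
In Iars the element began 8 bases after the start and in Yars 4 bases after it, and in Gars and Tars it began 30 and 15 bases before. Of these 4 genes Iars fell, and Gars, Tars and Yars had log2 fold changes of -0.08, 0.05 and -0.09 and were not called. Outside the synthetases, Eif2s3x was called lower (-0.39, adjusted p = 0.0153) and Eef2k was not called.

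The E-box CACGTG, the element bound by MYC, was in the windows of 17 of the 73 members (23.3%), against 8.09% of all genes. Among the 17 called members 14 had a window, and 4 of these held an E-box, shown here in the same way.
Eef2, chr10:81176576-81176605, plus strand: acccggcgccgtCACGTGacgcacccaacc
Eif4g1, chr16:20672661-20672690, plus strand: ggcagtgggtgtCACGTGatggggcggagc
Eif3f, chr7:108934335-108934364, plus strand: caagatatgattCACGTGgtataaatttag
Iars, chr13:49682049-49682078, plus strand: gaccaatcgccaCACGTGttgtttgtaggt
They lay 43, 54, 68 and 69 bases before the start in Eef2, Eif4g1, Eif3f and Iars, and Eif4g1 held another one 16 bases after it. Eef2, Eif4g1 and Iars fell and Eif3f rose, so genes with this element were called in both directions. The other 13 members with an E-box, among them Eif4e, Eif4a1 and Eif5a, were not called. The 8 letters CCGGAAGT of an ETS site were in the windows of 11 members (15.1%, against 4.31% of all genes), of which Aimp1 was called. Both strands were searched in every case, and matches of different motifs shared no base. All genes means here every gene with a window, tested for expression or not, and a gene with several windows counted if any of them matched. No test was run on these shares. A match is a description of the letters and not of binding.

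Of the 17 mitochondrial synthetase genes 2 rose and none fell, against 12.9% and 16.1% of all genes. The median log2 fold change of the 17 was 0.04. Cars2, for cysteine, rose from 11.3, 8.78 and 10.3 CPM to 13.2, 11.9 and 14.9 CPM, with no overlap (0.39 ± 0.13, adjusted p = 0.0370). Fars2, for phenylalanine, rose from 20.6, 18.9 and 19.8 CPM to 24.3, 21.4 and 26.6 CPM, again without overlap (0.29 ± 0.10, adjusted p = 0.0437). Both remained called with the length trend removed (0.51 with adjusted p = 0.0109, and 0.36 with adjusted p = 0.0153). The Cars2 call ended without control 2, neomycin 1 or neomycin 3 (adjusted p up to 0.146) and that of Fars2 in every such fit except the one without neomycin 2 (up to 0.185). Exons of both genes overlap another gene on the opposite strand, Naxd for Cars2 and Lyrm4 and Nrn1 for Fars2. The lowest value was that of Mars2, for methionine, at 3.51, 3.80 and 3.66 CPM against 2.54, 2.10 and 3.31 CPM (-0.46 ± 0.21, adjusted p = 0.112). Wars2, for tryptophan, stood at 16.3, 16.1 and 14.2 CPM against 14.0, 12.9 and 12.8 CPM (-0.23 ± 0.10, adjusted p = 0.101). The groups did not overlap for either, though neither was called.

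Cytosolic and mitochondrial enzymes were then compared directly, with Gars and Kars, which also supply mitochondria, counted as cytosolic. Without Gars and Kars the median log2 fold change of the cytosolic genes was also 0.03. The mean log2 CPM of the cytosolic synthetases was 6.33, 6.36 and 6.41 in control and 6.35, 6.37 and 6.38 after neomycin, and that of the mitochondrial ones 4.25, 4.26 and 4.30 against 4.31, 4.20 and 4.29. The cytosolic mean exceeded the mitochondrial one by 2.09 ± 0.02 (SD, n = 3) in control and 2.10 ± 0.06 after neomycin. The change in this excess, 0.006, was smaller than the spread within either group, and the groups overlapped. Of the 18 pairs formed by a mitochondrial enzyme and the cytosolic gene for the same amino acid, the cytosolic gene had the higher log2 fold change in 8 and the mitochondrial one in 10. Eprs was paired with both Ears2 and Pars2, and Fars2 with both Farsa and Farsb, so the pairs are not all independent. In each of these pairs the mitochondrial gene had the higher value. The log2 ratio within a pair did not overlap between the groups in 5 pairs. Single genes did not overlap in 43.5% of all genes tested, and the share for ratios of other gene pairs was not computed. For tryptophan the ratio of Wars to Wars2 was 0.37 higher after neomycin on the log2 scale and for threonine (Tars, Tars2) 0.12 higher. For cysteine (Cars, Cars2) it was 0.32 lower on that scale, the difference being -0.32, for glutamate (Eprs, Ears2) the difference was -0.20 and for isoleucine (Iars, Iars2) -0.18. Both isoleucine enzymes had negative values, -0.34 for Iars and -0.16 for Iars2, and both phenylalanine enzymes positive ones. Compared per kb of exon in control, the cytosolic gene was the higher one in all 18 pairs, by 1.05-fold (Lars, Lars2) to 54.5-fold (Mars, Mars2), with a median of 3.47-fold. These ratios depend on the merged length of all annotated exons. Without division by length Lars2 was above Lars in control (112 against 57.2 CPM), with 11089 and 5368 bases of exon. Lars2 varied widely between the pools, at 89.4, 124 and 123 CPM in control and 125, 67.4 and 105 CPM after neomycin. Mars2 and Mars stood at 3.66 and 60.3 CPM, with 11294 and 3423 bases.

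**Figure D3:**
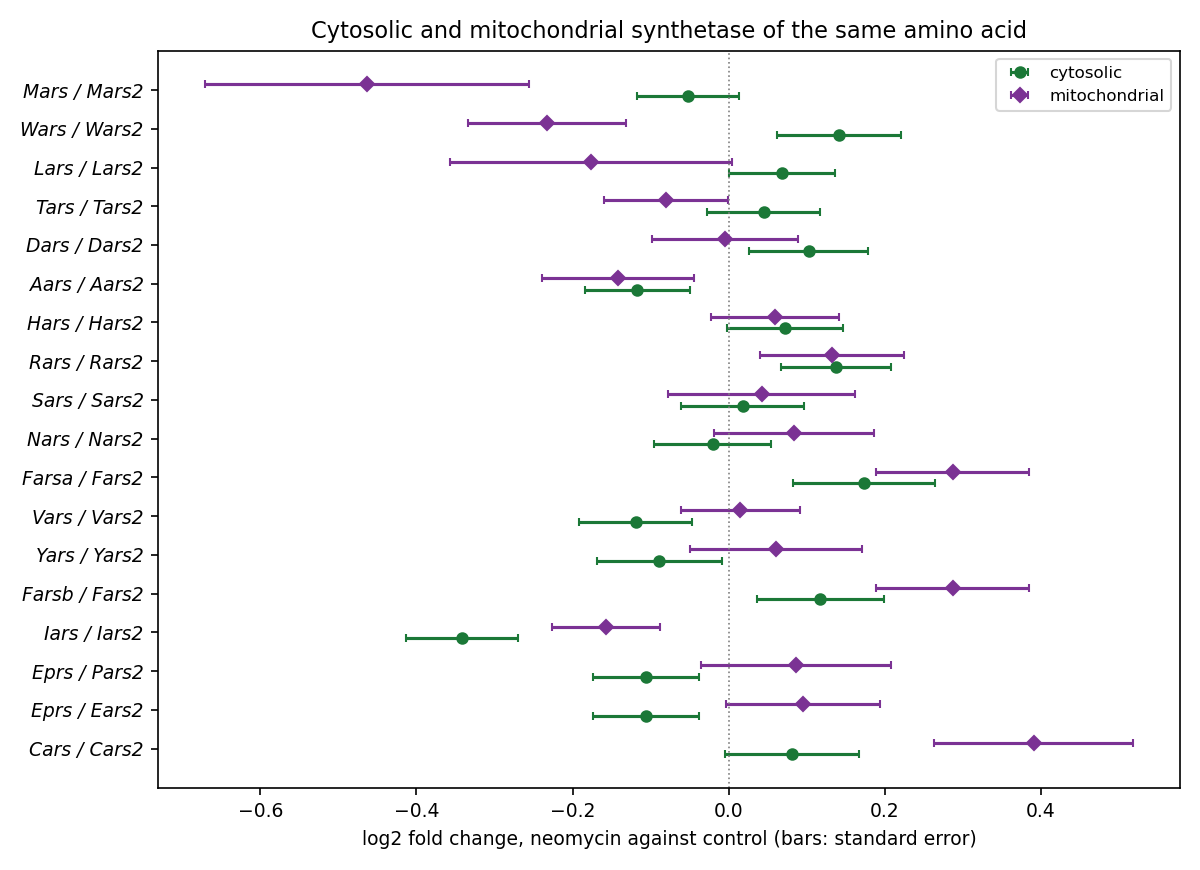
Log2 fold change of neomycin against control (x axis) for the cytosolic (circles) and mitochondrial (diamonds) synthetase of the same amino acid, 18 pairs ordered by the difference; bars are the standard error of each fold change. Mars2 and Cars2 lie furthest to either side, and Iars is the cytosolic gene furthest from 0.

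**Figure D4:**
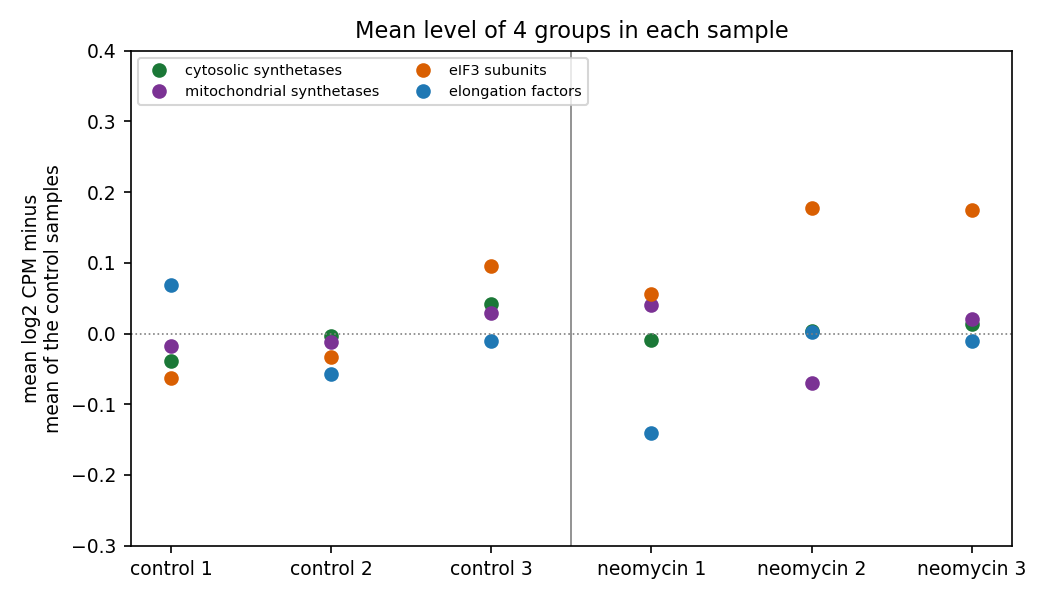
Mean log2 CPM of the cytosolic synthetases, the mitochondrial synthetases, the eIF3 subunits and the elongation factors in each of the 6 samples, each minus its mean over the 3 control samples (y axis). The synthetases and elongation factors overlap between the groups, and for eIF3 control 3 lies above neomycin 1.

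Fold changes in these libraries ran with gene length. Exon length is here the merged length of all annotated exons of a gene, which can exceed that of its mRNA. Over the 95 members, Spearman's correlation of exon length with log2 fold change was -0.31, and over the 15863 tested genes with a length it was -0.41, a description across genes that share the same libraries. Among the 32 shortest members, of 744 to 3257 bases, 4 were called higher and 0 lower, where 23.7% and 6.33% of all genes of such lengths were. Among the 31 of middle length 3 were called higher and 4 lower, against 9.89% and 13.7%. Among the 32 longest, from 5608 bases, 4 were called higher and 2 lower, against 4.44% and 28.2%. Eif5b, Cars2, Eef1d and Fars2, long by this measure, thus rose where few genes of such a length did. With the trend of all genes on length removed from each sample, 11 members were called higher and 7 lower, the calls of Eif3f, Eif3m, Eif4g1, Eif4ebp3 and Eef2kmt were lost and those of Eif2a (0.25), Eif2b3 (0.31), Eif2d (0.24), Eif3e (0.39), Eef1a1 (-0.27) and Eef1a2 (-0.92) were gained. The correlation over the members turned to 0.36, while that over all genes went to 0.008. Whether the length trend arose in the cells or in the libraries was not tested.

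**Figure D5:**
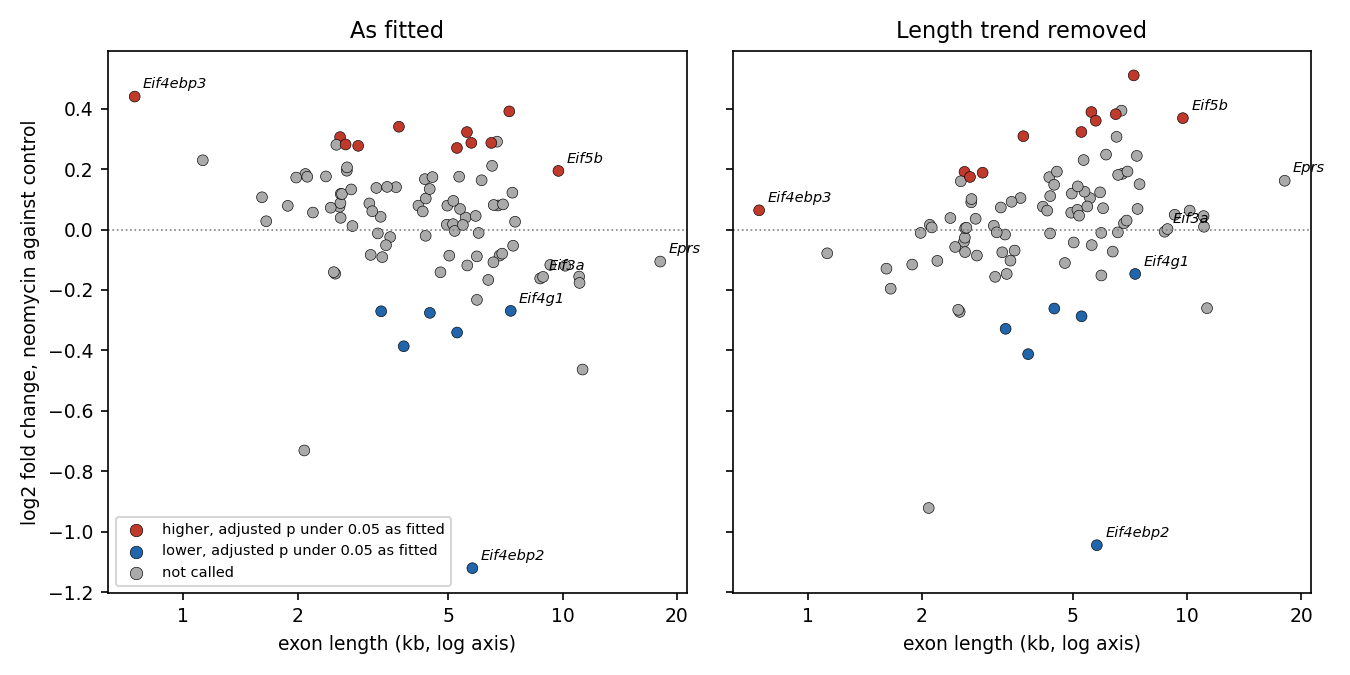
Log2 fold change of neomycin against control (y axis) against exon length in kb (log axis) for the 95 tested members, as fitted (left) and with the length trend of all genes removed (right); colours mark the calls of the fit on the left. Eif4ebp3, the shortest, drops from 0.44 to 0.06, and Eif4ebp2 stays near -1.

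Genes that work beside the members were counted from lists. Of all genes tested 12.9% were called higher and 16.1% lower. A list of 20 further cytosolic genes held factors of release, recycling and mRNA-tail binding, enzymes of hypusine synthesis and some others, among them the synthetase-like Tarsl2. Of these 5 rose and none fell, with a median of 0.08. Among them were both partners of the dimer that releases tRNA from recycled subunits and aids reinitiation. Denr rose from 55.4, 53.4 and 58.9 CPM to 65.7, 73.2 and 81.2 CPM (0.39 ± 0.08, adjusted p = 0.00514), and Mcts1 from 19.0, 21.5 and 22.7 CPM to 27.9, 27.9 and 30.9 CPM (0.46 ± 0.09, adjusted p = 0.00395). Both were clear of their control samples. Mcts2, a near-identical copy whose reads may be split with Mcts1, was also called (0.47 ± 0.11, adjusted p = 0.00778). Without the length trend Denr remained called (0.48, adjusted p = 0.00170), Mcts1 and Mcts2 did not (adjusted p 0.0608 and 0.486). The member Eif2d, which acts in the same step as a single protein, was at 0.12 (adjusted p = 0.237) and was called with the length trend removed (0.24, adjusted p = 0.0265). Paip1, a partner of poly(A)-binding protein, and Dohh, which completes hypusine on eIF5A, rose as well. Paip1 remained called without the length trend (0.20, adjusted p = 0.0395) and Dohh did not (0.07, adjusted p = 0.473).

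Of 14 mitochondrial translation factors 2 rose and none fell, against 12.9% and 16.1% of all genes, and the median of the list was 0.13. Tsfm, the exchange factor of mitochondrial EF-Tu, was measured at 17.9, 16.0 and 17.8 CPM in control and 20.6, 22.0 and 22.8 CPM after neomycin (0.34 ± 0.09, adjusted p = 0.0166), and the initiation factor Mtif3 at 22.0, 24.1 and 26.2 CPM against 27.4, 30.9 and 28.7 CPM (0.27 ± 0.09, adjusted p = 0.0441). The groups did not overlap for either. Mtrf1l, a release factor, was at 0.32 ± 0.12 (adjusted p = 0.0546). The adjusted p of Tsfm was 0.0510 with the length trend removed.

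None of the 6 genes for eIF2 alpha kinases and phosphatase subunits was called, and all 6 values were negative, with a median of -0.13. The smallest p values were those of Eif2ak2, the double-stranded RNA sensor (-0.27 ± 0.11, adjusted p = 0.0739), Ppp1r15a (-0.16 ± 0.08, adjusted p = 0.178) and Eif2ak4, the sensor of uncharged tRNA (-0.15 ± 0.08, adjusted p = 0.196). With the length trend removed the median was -0.02 and Eif2ak1 stood at 0.04. In that fit Ppp1r15a was called lower (-0.24, adjusted p = 0.0255). Of 28 genes of the ATF4 and amino acid response 2 rose and 6 fell, where 12.9% and 16.1% of all genes did, with a median of -0.17. Those that fell were the amino acid transporters Slc7a5, Slc7a1 and Slc1a4, the hormone gene Stc2, Sesn2 and Gpt2. Stc2 had the lowest log2 fold change of these (-0.62 ± 0.16, adjusted p = 0.0140) and was the one past a fold of 1.5. Slc7a5, which imports leucine and isoleucine, was measured at 21.7, 18.7 and 19.7 CPM in control and 13.0, 14.2 and 13.9 CPM after neomycin (-0.55 ± 0.10, adjusted p = 0.00173), and Slc1a4, a carrier of serine and alanine, at 27.9, 35.2 and 37.8 CPM against 22.5, 24.3 and 24.8 CPM (-0.49 ± 0.11, adjusted p = 0.00595). Sesn2, an inhibitor of mTORC1 that senses leucine, fell from 19.8, 20.6 and 22.0 CPM to 15.5, 16.2 and 15.9 CPM (-0.39 ± 0.09, adjusted p = 0.00718). In each of these every control sample was above every neomycin sample. The genes that rose, Phgdh and Psph, encode enzymes of serine synthesis. With the length trend removed Psph remained called (0.36, adjusted p = 0.00723) and Phgdh did not (0.10, adjusted p = 0.341). Among the genes that fell, Slc7a1 and Gpt2 also lost their calls in that fit (adjusted p = 0.0898 and 0.0873). Slc7a5, Slc1a4, Stc2 and Sesn2 remained called. Atf4 itself was at 0.16 and Asns, asparagine synthetase, at -0.12, and neither was called.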

How the data were processed

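RNA from pooled cochlear explants was sequenced in 3 control and 3 neomycin samples. Per the labels, the authors called bases with CASAVA 1.8, trimmed reads with Trimmomatic 0.23, aligned them to mm10 with HISAT2 and counted them with HTSeq. They deposited whole-number counts per gene symbol, not normalized. The strand setting of the counting is not given in the sources used here.

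Counts were scaled by TMM, filtered with filterByExpr and tested with the quasi-likelihood test of edgeR 4.0.16 (R 4.3.3), neomycin against control, with Benjamini-Hochberg adjustment over all 15988 genes tested. Standard errors came from the F statistic. CPM are counts relative to the TMM-scaled library total. Means per sample used log2 CPM with a prior count of 2. Alternatives were DESeq2 1.42.0, limma-voom (limma 3.58.1), other scalings and filters, a replicate block, each sample left out, and removal of the lowess trend (span 0.3) of each sample's log2 ratio on exon length, taken from GENCODE on the same build. The code was tested on simulated data. Figures were drawn with matplotlib in Python.

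Named were members past a fold of 1.5, the 3 smallest p values and the extremes of log2 fold change (at least 1 CPM) of each role, key factors, synthetase pairs, and the 3 smallest p values of each pathway list. Other named genes were chosen after their values were seen. The members and lists were chosen with earlier results of these data known. P-values measure the spread between pools, which may be technical in part. Total counts of 50471116 to 66068108 limit precision mainly for the low members. Sequence of 1 member is not reported here.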

Additional observations from a re-analysis of the deposited data

How the results depend on the processing

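The counts of members called, 11 higher and 6 lower, stayed within a factor of 1.5 with DESeq2, limma-voom, RLE or upper quartile scaling, either other filter and the length correction. Scaling by library totals alone gave 3 higher and 9 lower, and moved the medians of the cytosolic and mitochondrial synthetases to -0.037 and -0.027 (all genes: -0.073). With a fold over 1.5 the counts were 0 and 1. Without 1 replicate they ran from 1 to 23 higher and from 2 to 6 lower: without control 1, 2 and 3 they were 2 and 3, 3 and 2, and 23 and 6, and without neomycin 1, 2 and 3 they were 10 and 4, 3 and 3, and 1 and 2. Of the 17 calls 2 held in all 6 of these fits. The cytosolic median ran from -0.012 to 0.068, the mitochondrial one from -0.013 to 0.060, and the change of their difference from -0.028 to 0.034. The cause of these shifts was not tested beyond the smaller number of samples.

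With the replicate number as a block, 22 members were called higher and 10 lower, beside 2785 and 3229 of all genes. To compare sample numbers, each gene's group mean was subtracted from its log2 CPM, and the deviations were correlated between control and neomycin samples. Same-numbered samples gave 0.17, 0.03 and 0.09, not all over 0.1, and samples of different numbers -0.13 to 0.03. For each gene these deviations cancel out within a group, so the values are not independent. By this measure 5 of the 6 samples correlated best with their own number. The labels give no more than the number, and whether same-numbered samples shared a batch was not tested.

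Signs turned for no called member. With the length trend removed they turned for 24 of the 95 members, none of them called as fitted. Among the genes chosen by the naming rule, the values that turned are as follows. By library totals they were -0.039 for Aimp2, -0.057 for Eif1ad, -0.053 for Eif2s1 and -0.014 for Eif4ebp1. By upper quartiles they were 0.0084 for Eef1e1 and 0.0098 for Eif4e. With the length trend removed they were -0.20 for Aimp2, 0.068 for Eef2k, -0.086 for Eif1ad, -0.079 for Eif1b, 0.070 for Eif4e, -0.10 for Eif4ebp1 and 0.16 for Eprs. Without 1 replicate they ran from -0.084 to 0.18 for Aimp2, from -0.10 to 0.070 for Eef1e1, from -0.13 to 0.037 for Eef2k, from -0.0095 to 0.042 for Eif1ad, from -0.027 to 0.068 for Eif2s1, from -0.041 to 0.016 for Eif4e and from -0.11 to 0.20 for Eif4ebp1.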
